A study of Mus musculus with 2 samples.

Results

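The 44 collagen genes on the array were those whose name in the scanner files had the form Col, a number, the letter a and a number, out of 37006 named targets. Together they had 91 probes. The study held 2 Agilent mouse arrays of total RNA, 1 hybridised with RNA of mouse cells treated with S180 and 1 with RNA of mouse cells treated with DMSO, a solvent. The labels give no cell type, genotype, dose or exposure time, and do not say what S180 is. With 1 array per group there is no replicate check, no p-value is given, and precision is limited by having so few arrays. A gene's level is the log2 processed signal of its brightest probe minus the 75th percentile of its array, so that 0 marks that percentile. Levels are read between the arrays for a probe, and not between genes, because probes differ in how brightly they hybridise. A gene is called measured where its brightest probe was flagged well above background by the scanner software on both arrays. A difference is S180 minus DMSO, and 1.5-fold corresponds to 0.585 on the log2 scale.

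Collagens are secreted or membrane proteins of the extracellular matrix in which 3 chains wind into a triple helix, a fold that requires glycine to recur in a Gly-X-Y repeat. Fibrillar collagens, led by type I, form the tensile fibres of connective tissue. Type IV collagen forms the sheet of basement membranes, and the remaining types decorate fibres, anchor membranes, build beaded filaments or span the plasma membrane. The chains of 1 molecule often come from different genes, so that partner genes are described side by side below.

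Leaving control spots aside, the software flagged 61.9% (S180) and 60.6% (DMSO) of 59305 spots as well above background, and none as saturated. The error used for a single difference, the spot SD, joins the SDs between replicate spots of a probe on the 2 arrays. It is thus the SD of a difference between single spots. The measured genes were split by signal into 3 classes of equal size. The spot SD was 0.042 (log2) for bright genes (262 probes), 0.072 for genes of middle signal (6 probes) and 0.266 for dim genes (11 probes). It covers the array alone, and both arrays shared a slide and a scan. Different probes of a gene disagreed more: the differences of the 2 brightest probes of a gene differed with an SD of 0.192 in the bright class, 0.255 in the middle class and 0.384 in the dim class.

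Since the labels name no cell type, 10 sets of cell type markers were read. All 7 melanocyte markers were measured, with a summed signal of 800049 in S180 and 868102 in DMSO. They included Dct, an enzyme of melanin synthesis, with signals of 176424 in S180 and 179334 in DMSO. The 4 smooth muscle and the 4 Schwann or glia markers were measured too. Of the 7 fibroblast markers, a cell type known for making type I collagen, 5 were measured, and all 7 together had a summed signal of 585 in S180 and 970.4 in DMSO. Thy1 and Dpt were not well above background on either array. Of the remaining sets, 5 of 6 macrophage, 3 of 6 epithelial, 3 of 5 chondrocyte, 3 of 5 osteoblast, 1 of 5 endothelial and 0 of 3 hepatocyte markers were measured. These signals are unscaled, and the 75th percentile was 615 in S180 and 748 in DMSO.

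The cells gave signal for 28 of the 44 collagen genes on both arrays (63.6%), beside 56.1% of all 37006 targets. Of the 11 fibrillar genes 8 were measured, of the 6 type IV genes 3, and of the 27 other collagen genes 17. Col6a1 was well above background on the S180 array alone and Col9a1 on the DMSO array alone, and 14 genes were dim on both. The dim genes included Col3a1, the partner of type I in stretchable tissues, and Col2a1, the main collagen of cartilage. At the level of probes, 37 of the 91 were well above background on both arrays. That is a smaller share than the 61.9% (S180) and 60.6% (DMSO) of all spots flagged on each array. Taking the brightest probe favours genes with more probes. Collagen genes had 91 probes for 44 genes, beside 56605 probes for all 37006 targets. Counting genes with a significant positive signal by the software's looser flag gave 38 of 44, and the share of all targets by that flag is not given here.

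**Figure D1:**
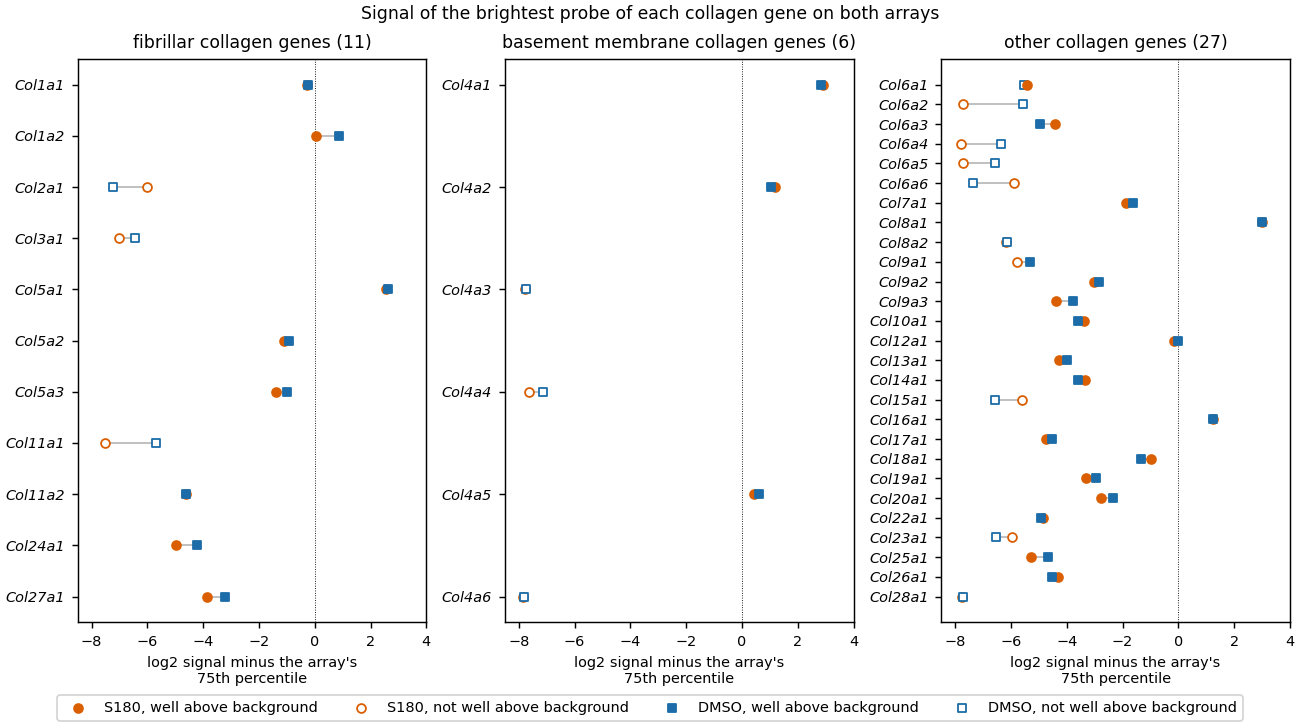
Level of the brightest probe of each collagen gene (log2 signal minus the array's 75th percentile), with S180 as circles and DMSO as squares, filled where the probe was well above background. The 28 genes with both symbols filled are the measured ones. Long lines between open symbols, as for Col6a2, lie in the range where no level is measured.

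Some probes lie within the coding sequence of the helix itself, which can be read from their letters. In 4 of the 91 probes a reading frame placed a glycine codon, GG followed by any base, at every step of the Gly-X-Y repeat. They are shown because their letters spell the repeat that defines the family, and because they are the helix probes whose values are used below. The sequences are those in the scanner files, 5′ to 3′ in the sense of the transcript, with the glycine codons in capitals, and positions on build mm9.
Col6a3 (chr1:92689602-92690594, minus strand): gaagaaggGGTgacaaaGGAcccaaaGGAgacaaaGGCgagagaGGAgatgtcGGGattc
Col5a3 (chr9:20590066-20590795, minus strand): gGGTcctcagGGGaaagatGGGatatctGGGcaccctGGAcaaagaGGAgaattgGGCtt
Col11a2 (chr17:34189287-34189453, plus strand): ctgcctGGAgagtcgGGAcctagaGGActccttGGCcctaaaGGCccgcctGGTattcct
Col15a1 (chr4:47283786-47283845, plus strand): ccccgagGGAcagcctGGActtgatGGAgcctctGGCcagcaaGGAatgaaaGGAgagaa
The first 3 span more of the genome than the 60 bases of the probe and so cross at least 1 intron, whereas the Col15a1 probe lies in an unbroken stretch. Over all collagen probes, 76 of 91 lay in an unbroken stretch of 60 bases and 12 spanned a longer one. No exon annotation of this build was used here.

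Measured collagen genes leaned towards lower signals in S180. Of the 28, 5 were lower in S180 by 1.5-fold or more and 0 were higher by as much. Among all 20751 measured genes the same thresholds took in 1.71% as lower and 3.08% as higher. On this scale 0 collagen genes reached a 2-fold difference, beside 0.588% of all measured genes that were 2-fold higher and 0.169% that were 2-fold lower. Without scaling Col1a2 and Col24a1 were 2-fold lower, beside 0.834% of all genes, and on the spike-in scale Col1a2, Col24a1 and Col27a1 were, beside 1.23% of all genes. The median difference of the 28 was -0.14, beside 0.00 for all measured genes. Of the 28, 18 lay below 0, beside 10182 of all 20751 measured genes. The gene just inside the 1.5-fold limit was Col9a3 at -0.61, and the nearest one outside it was Col20a1 at -0.42. The 5 lower genes were Col1a2, Col24a1, Col27a1, Col25a1 and Col9a3. Col1a2 was 1 of 10 collagen genes in the class of middle signal, where 1.16% of all genes were at least 1.5-fold lower and 2.08% higher. None of the 3 bright collagen genes passed, in a class where 0.101% of all genes did so as lower and 1.66% as higher. The remaining 4 were among the 15 measured collagen genes of the dim class, where 3.87% of all genes were at least 1.5-fold lower and 5.49% higher. With normexp background correction, which adds an offset of 50 and so shrinks differences of dim spots, Col1a2 was the 1 gene left past the limit. In that setting 0.284% of all measured genes were at least 1.5-fold lower and 1.25% higher.

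**Figure D2:**
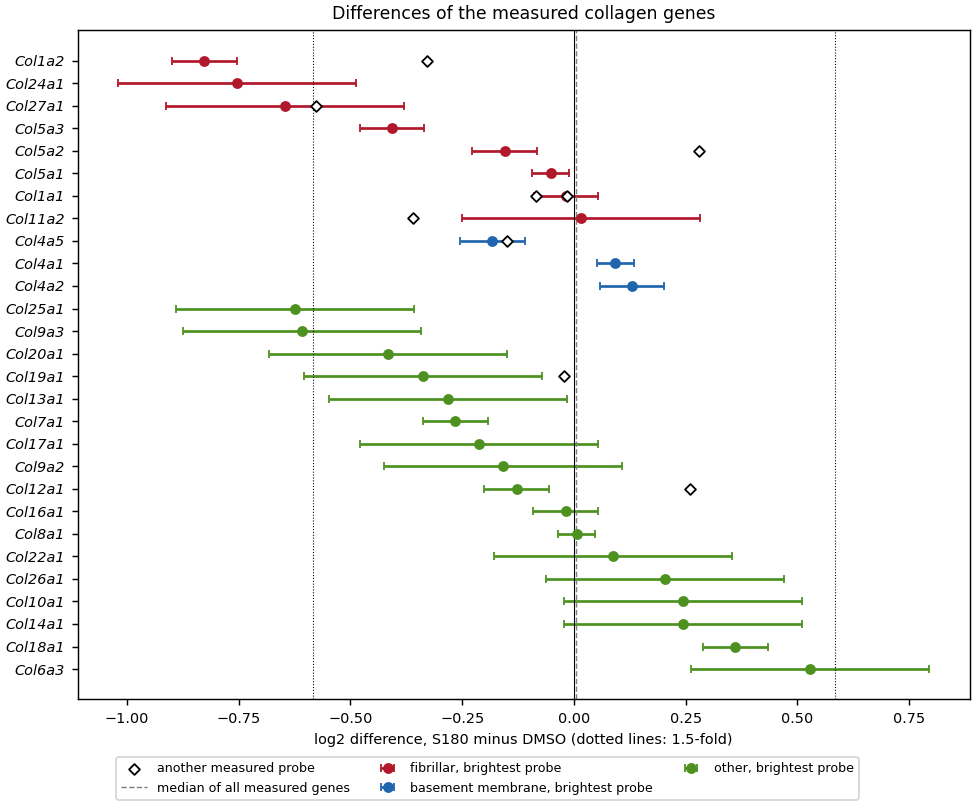
Log2 difference (S180 minus DMSO) of the 28 measured collagen genes, ordered within each type. Bars show 1 spot SD of a difference in the gene's signal class, and open diamonds show further measured probes. Col1a2, Col24a1, Col27a1, Col25a1 and Col9a3 lie left of the 1.5-fold line, and no gene lies right of its counterpart. Genes drawn between 0 and 0.25 fall below 0 when the arrays are scaled on spike-in transcripts or left unscaled.

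The fibrillar genes held the lowest values, and 7 of the 8 measured ones lay below 0, beside 10182 of all 20751 measured genes. Of the 7, Col1a1 at -0.02 and Col5a1 at -0.05 lay near 0. The median difference of the fibrillar genes was -0.28. It was -0.64 on the scale of 8 spike-in transcripts, where the median of all measured genes lay at -0.35 and most positive differences therefore fell below 0, and -0.15 with normexp.

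Type I collagen, the most abundant protein of bone and tendon, is built from Col1a1 and Col1a2 chains, and these partners differed on their brightest probes. Col1a2 had a level of 0.06 in S180 and 0.88 in DMSO, with signals of 639.5 and 1378. Its difference was -0.83, or 1.77-fold lower in S180, where the spot SD of its class was 0.072. That probe lies on chromosome 6 from 4490619 to 4490678 (mm9). Another Col1a2 probe, designed on a different Ensembl transcript, from 4479333 to 4479392, also gave a lower value in S180, with signals of 200.5 and 306 and a difference of -0.33. The mean of both probes was -0.58, just short of 1.5-fold. Probes to 2 further Col1a2 transcripts were not well above background.

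Col1a1 differed little on the main scale. Its brightest probe, on chromosome 11 from 94813075 to 94813134, was printed in 10 spots, with mean signals of 512 in S180 and 630.1 in DMSO. After scaling the levels were -0.26 in S180 and -0.25 in DMSO, a difference of -0.02 with a standard error of 0.028 from the spots; on the spike-in scale it was -0.37. A probe that overlaps it, printed in 10 spots of which 9 were kept on the S180 array, gave -0.08 with a standard error of 0.020. One more measured probe, from 94814188 to 94814247, gave -0.01. The differences of Col1a2 and Col1a1 stood 0.81 apart on their brightest probes, against a spot SD of 0.102 for such a contrast. That SD leaves out disagreement between probes, which within a gene had an SD of 0.255 in the middle class. With the other Col1a2 probe the gap was smaller, at -0.33 against -0.02.

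Type V collagen regulates the width of type I fibres, and its 3 chains were all measured. Col5a1 had levels of 2.56 in S180 and 2.62 in DMSO, a difference of -0.05. Col5a2 had -1.09 in S180 and -0.94 in DMSO, a difference of -0.16, but its other measured probe gave 0.28, so that its direction depends on the probe. Col5a3, a minor chain of type V, had signals of 232 in S180 and 374 in DMSO, and was 1.33-fold lower in S180 (-0.41). The Col5a3 helix probe shown above was well above background on the S180 array alone, with signals of 14.3 in S180 and 9.69 in DMSO, and so gave no difference of its own.

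Col24a1 and Col27a1 encode fibrillar collagens of later discovery with a shorter or interrupted helix, known from developing bone and cartilage. Col24a1 had levels of -4.97 in S180 and -4.21 in DMSO, from signals of 19.7 and 40.3, a difference of -0.75 on its 1 measured probe. Col27a1 had levels of -3.87 in S180 and -3.22 in DMSO, from signals of 42.1 and 80.2, a difference of -0.65. A second Col27a1 probe, on chromosome 4 from 62995485 to 62995544, gave -0.58 with signals of 39.6 and 71.8. Both Col27a1 probes were lower in S180 by more than the dim-class spot SD of 0.266. With normexp the difference was -0.14 for Col24a1 and -0.24 for Col27a1.

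Type XI collagen, the fibrillar collagen that seeds cartilage fibres, had 1 measured chain. Col11a2 had levels of -4.60 in S180 and -4.62 in DMSO, a difference of 0.02, and its helix probe shown above gave -0.36 with signals of 19.9 and 31.0. The partner chains Col11a1 and Col2a1 were not well above background on either array. Neither was Col3a1, with signals of 4.79 in S180 and 8.57 in DMSO on its brightest probe.

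The promoter windows of the 3 lower fibrillar genes are shown because these genes lay past 1.5-fold together. Each holds 250 bases before and 50 bases from the RefSeq start site onwards on assembly GRCm38.p6, printed along the gene's own strand. Capitals mark the CCAAT box, which the factor NF-Y binds, and the TATA box, searched as TATAAA. They also mark GGGCGG, the box known for binding the factor Sp1, and ACGTG, a form of the core of the site of hypoxia-inducible factors. Each of these motifs was read on both strands, and GCGTG, another form of that core, was not searched. No marked motif overlapped another in these windows.
Col1a2 (chr6:4505368-4505667, plus strand): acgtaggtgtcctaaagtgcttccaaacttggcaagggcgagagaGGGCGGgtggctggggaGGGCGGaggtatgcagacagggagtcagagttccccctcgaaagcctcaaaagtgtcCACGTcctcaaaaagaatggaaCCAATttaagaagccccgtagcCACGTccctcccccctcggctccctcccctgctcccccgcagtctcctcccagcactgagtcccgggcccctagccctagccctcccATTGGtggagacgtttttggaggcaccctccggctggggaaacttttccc
Col24a1 (chr3:145292222-145292521, plus strand): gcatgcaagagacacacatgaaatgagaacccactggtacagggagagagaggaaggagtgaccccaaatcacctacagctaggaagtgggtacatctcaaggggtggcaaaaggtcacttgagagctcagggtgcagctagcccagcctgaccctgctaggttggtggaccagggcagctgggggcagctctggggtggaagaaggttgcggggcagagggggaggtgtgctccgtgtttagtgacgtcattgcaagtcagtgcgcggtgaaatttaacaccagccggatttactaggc
Col27a1 (chr4:63215162-63215461, plus strand): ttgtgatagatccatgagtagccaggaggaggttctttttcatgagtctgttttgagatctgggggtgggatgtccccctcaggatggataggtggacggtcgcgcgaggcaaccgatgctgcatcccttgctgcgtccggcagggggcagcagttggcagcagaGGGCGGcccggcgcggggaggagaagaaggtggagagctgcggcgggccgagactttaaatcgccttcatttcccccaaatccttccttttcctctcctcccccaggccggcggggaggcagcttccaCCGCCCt
The Col1a2 window held 2 CCAAT boxes, 2 GGGCGG boxes and 2 matches to ACGTG on the opposite strand. The Col27a1 window held 2 GGGCGG boxes and none of the other motifs, and the Col24a1 window held none of the 4. GGGCGG was thus in the Col1a2 and Col27a1 windows, and no motif was in all 3. A match is a run of letters and no evidence of binding.

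Promoter windows were found for 35 of the 44 collagen genes. These had 38 windows. GGGCGG occurred in 23 of the 38 collagen windows (60.5%), beside 35.7% of all 32851 windows. The share for CCAAT was 34.2% in collagen windows and 37.4% in all windows, for TATAAA 13.2% and 13.6%, and for ACGTG 13.2% and 19.6%. The median GC content was 59.8% in the collagen windows and 52.7% in all windows, which bears on the count of a GC-rich box.

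None of the 3 measured basement membrane collagen genes reached 1.5-fold. Type IV collagen is a network, and its common form combines Col4a1 and Col4a2 chains. Col4a1 had levels of 2.92 in S180 and 2.83 in DMSO, from signals of 4667 and 5318, a difference of 0.09. Col4a2 had levels of 1.18 in S180 and 1.05 in DMSO, from signals of 1395 and 1549, a difference of 0.13. The differences of both partners stood 0.04 apart, within the spot SD of 0.083 for that contrast. Both lay below 0 on the spike-in scale, at -0.26 for Col4a1 and -0.22 for Col4a2, and also without scaling.

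Col4a1 and Col4a2 lie head to head and are read in opposite directions from a shared promoter, which is shown because both genes had nearly the same difference. The start sites were 21 bases apart, and the windows share 78 bases.
Col4a1 (chr8:11312777-11313076, minus strand): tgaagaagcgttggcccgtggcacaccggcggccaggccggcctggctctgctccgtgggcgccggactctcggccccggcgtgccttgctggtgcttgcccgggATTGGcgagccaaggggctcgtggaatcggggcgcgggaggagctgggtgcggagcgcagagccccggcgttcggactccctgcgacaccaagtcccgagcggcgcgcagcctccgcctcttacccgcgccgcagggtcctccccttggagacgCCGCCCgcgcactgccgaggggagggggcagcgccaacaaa
Col4a2 (chr8:11312555-11312854, plus strand): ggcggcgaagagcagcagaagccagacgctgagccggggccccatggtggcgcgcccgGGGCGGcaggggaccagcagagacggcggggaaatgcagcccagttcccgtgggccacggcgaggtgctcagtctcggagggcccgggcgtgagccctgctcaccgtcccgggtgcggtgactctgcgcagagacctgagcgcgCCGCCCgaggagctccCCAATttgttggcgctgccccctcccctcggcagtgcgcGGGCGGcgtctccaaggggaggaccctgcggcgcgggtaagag
Marked as above, the Col4a1 window held 1 CCAAT box and 1 GGGCGG box and the Col4a2 window 1 CCAAT box and 3 GGGCGG boxes. The GGGCGG box of the Col4a1 window is the same site as 1 of the 3 in the Col4a2 window. It lies in the shared bases, after both start sites. The GC content was 74.0% in the Col4a1 window and 73.7% in the Col4a2 window. Neither held TATAAA or ACGTG, and the form GCGTG was not searched here either.

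The remaining type IV genes encode chains of specialised membranes such as that of the kidney filter. Col4a5 had levels of 0.43 in S180 and 0.62 in DMSO, a difference of -0.18, and its second probe gave -0.15. Its partners Col4a3, Col4a4 and Col4a6 were not well above background on either array, with signals of 2.68 to 5.36 over both arrays. The chains that join with Col4a5 were therefore not measured.

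Among the other collagens, the network-forming and fibre-associated genes with strong signal barely moved. Col8a1, a short-chain collagen of vessel and eye membranes, had signals of 4920.1 in S180 and 5955 in DMSO, a difference of 0.01, and its partner Col8a2 was not well above background. Col16a1, a fibre-associated collagen, had 1.24 in S180 and 1.25 in DMSO. Col12a1, which links type I fibres to their surroundings, had -0.16 in S180 and -0.03 in DMSO, a difference of -0.13, whereas its second measured probe gave 0.26.

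Of the 9 fibre-associated (FACIT) collagens 8 were measured, and 6 of them lay below 0, beside 10182 of all 20751 measured genes. Col9a3, a chain of the type IX collagen on cartilage fibres, had levels of -4.39 in S180 and -3.78 in DMSO, from signals of 29.4 and 54.4, a difference of -0.61. A second Col9a3 probe on the same RefSeq transcript was not well above background, with signals of 2.76 in S180 and 3.43 in DMSO. The partner chain Col9a2 differed by -0.16, and the gap between Col9a3 and Col9a2, 0.45, compares with a spot SD of 0.376. Col9a1, the remaining chain, was well above background on the DMSO array alone, with signals of 11.0 in S180 and 18.9 in DMSO. Set against the lowest well-above-background level of the S180 array, its DMSO level was 1.19-fold higher. That bound leaves out spot error, for which the dim-class SD was 0.266 (log2). The other Col9a1 probe was not well above background on either array. Col20a1 had levels of -2.77 in S180 and -2.35 in DMSO, and Col19a1 had -3.30 in S180 and -2.96 in DMSO. The second measured probe of Col19a1 gave -0.02. Col14a1, which binds fibres through decorin, differed by 0.25 and Col22a1, of tissue junctions, by 0.09, both falling below 0 on the spike-in scale.

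All 3 measured transmembrane collagens lay below 0, as did 10182 of all 20751 measured genes. Col25a1, known from motor neuron development, had levels of -5.30 in S180 and -4.67 in DMSO, from signals of 15.6 and 29.3, a difference of -0.62. Another Col25a1 probe, which spans 6960 bases of chromosome 3, was well above background on the DMSO array alone, with signals of 2.79 in S180 and 42.0 in DMSO. Col13a1, of the neuromuscular junction, differed by -0.28 and Col17a1, of the hemidesmosomes that fix skin cells to their base, by -0.21. Col17a1 lay above 0 with normexp, at 0.08. Col7a1, the anchoring fibril beneath the epidermis, had levels of -1.88 in S180 and -1.62 in DMSO and differed by -0.27.

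The highest values of the family came from Col6a3 and Col18a1, and both were above 0 in each of the 10 settings tried. Col6a3, a chain of the beaded filaments of type VI collagen, had levels of -4.42 in S180 and -4.95 in DMSO, from signals of 28.8 and 24.2 on the helix probe shown above, a difference of 0.53. Its dim-class spot SD was 0.266, and its other probes were not well above background on either array. Another Col6a3 probe on the same RefSeq transcript had signals of 2.65 in S180 and 3.32 in DMSO. Col18a1, the basement membrane collagen that releases endostatin, had levels of -0.98 in S180 and -1.34 in DMSO, from signals of 313 and 296, a difference of 0.36. On the spike-in scale these became 0.17 for Col6a3 and 0.01 for Col18a1. Of the partners of Col6a3, Col6a1 was well above background on the S180 array alone, with signals of 14.3 in S180 and 16.3 in DMSO, and Col6a2 on neither. Col15a1, the relative of Col18a1, was not well above background on its brightest probe, the helix probe shown above, with signals of 12.6 in S180 and 7.81 in DMSO. Of the rest, Col10a1, of growth plate cartilage, differed by 0.24 and Col26a1 by 0.20, and both fell below 0 on the spike-in scale.

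**Figure D3:**
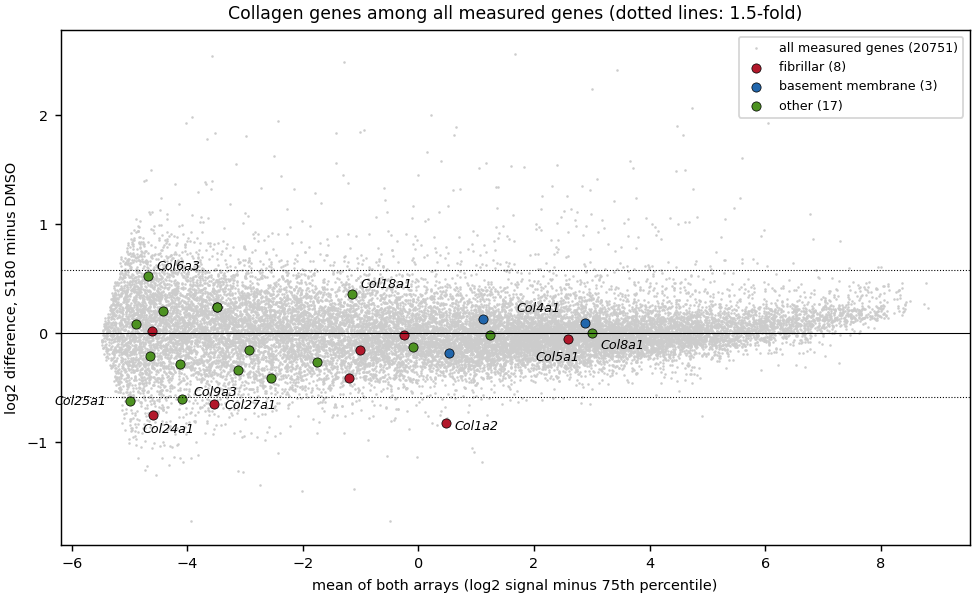
Log2 difference (S180 minus DMSO) against the mean level of both arrays for all 20751 measured genes in grey and the 28 measured collagen genes by type. Of the genes past the lower 1.5-fold line, Col1a2 lies at middle signal and Col24a1, Col27a1, Col25a1 and Col9a3 lie in the dim range, where the grey cloud is widest.

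Over the main setting and 9 alternatives of scaling, background correction, probe choice and spot filter, 13 of the 28 measured genes lay below 0 in each and 2 lay above 0 in each. These are 46.4% and 7.14% of the collagen genes, beside 35.6% and 9.82% of all measured genes. Leaving data unscaled and scaling on spike-ins lower every gene alike, and without these settings 8 collagen genes (28.6%) lay above 0 in each, beside 40.5% of all genes, with the count below 0 unchanged at 13. The 13 included the 5 lower genes, Col5a1, Col5a3, Col4a5 and Col7a1. The family's median minus that of all measured genes was -0.15 in the main setting, a value that another single scaling factor per array cannot change. It was -0.11 with quantile normalization and cyclic loess, and -0.06 with normexp. The deposited table nearly repeated quantile normalization, so these settings are not separate checks.

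Markers of several cell types also lay below 0, where 10182 of all 20751 measured genes lay. All 5 measured fibroblast markers did, with a median of -0.48, and 2 of them were at least 1.5-fold lower. Lum, a proteoglycan of collagen fibres, had signals of 22.2 in S180 and 89.0 in DMSO and differed by -1.72. Fap, a protease of activated fibroblasts, differed by -0.88, the growth factor receptor gene Pdgfra by -0.48, the proteoglycan gene Dcn by -0.38 and Pdgfrb by -0.24. With normexp Lum differed by -0.56 and Fap by -0.35. In RNA of whole cultures, fewer cells of a type and less RNA per cell cannot be told apart. All 3 measured epithelial markers lay below 0 too, with a median of -0.50 and 1 past 1.5-fold (Epcam, an adhesion protein, at -0.89). Signals of Epcam were 13.3 in S180 and 30.0 in DMSO, and the lowest well-above-background signal on the S180 array was 13.1. Of the macrophage markers 4 of 5 lay below 0, with Lyz2, a lysozyme, at -0.84, whereas Csf1r lay above 0 at 0.22. Of the smooth muscle markers 2 of 4 lay below 0, with Cnn1, a contractile protein, at -0.62. The brighter Acta2 and Tagln lay above 0, at 0.36 and 0.22, and the median of that set was 0.06. Lum, Fap, Epcam, Lyz2 and Cnn1 had signals in the range of the dim class, where 3.87% of all genes were at least 1.5-fold lower. With normexp 0 fibroblast, epithelial, macrophage and smooth muscle markers were 1.5-fold lower. The melanocyte markers had a median difference of 0.14, which was -0.07 with quantile normalization. The part of these markers in the collagen differences was not tested.

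The genes that make, process and read collagen were described from 8 lists, to be read beside the 3.08% of all measured genes that were 1.5-fold higher and the 1.71% that were lower. Of 15 measured genes of collagen modification and folding, 3 were higher in S180 by 1.5-fold or more and 0 lower, with a median of 0.12. The 3 were P4ha2 at 2.82-fold and P4ha1 at 0.99 (log2), the catalytic subunits of prolyl 4-hydroxylase, and Plod2 at 0.91, a lysyl hydroxylase. Signals of P4ha2 were 25351 in S180 and 10918 in DMSO. On the spike-in scale P4ha2 lay at 1.14, P4ha1 at 0.63 and Plod2, then short of 1.5-fold, at 0.55. Serpinh1, the collagen chaperone HSP47, differed by 0.05, with signals of 32396 in S180 and 38118 in DMSO. No measured collagen gene was 1.5-fold higher beside these 3.

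None of the 7 secretion genes reached 1.5-fold on its brightest probe, and their median was 0.06. Sec23a, a coat protein of transport vesicles, had 0.29 on that probe but 0.68 as the mean of its measured probes, past 1.5-fold. Of 6 measured genes of processing and cross-linking, Loxl2, a lysyl oxidase that acts on type IV collagen, was higher at 1.31 with signals of 1462 in S180 and 715 in DMSO, and its second probe gave 0.71. Lox, the first of that enzyme family, was not well above background on either array, whereas Pcolce, an enhancer of procollagen cleavage, differed by 0.03. None of the 6 measured genes of degradation and uptake reached 1.5-fold on the main scale, among them Mmp14, a membrane collagenase, at -0.18. Timp3, an inhibitor of such proteases, had -0.36, and was past 1.5-fold at -0.72 on the spike-in scale. On that scale 14.3% of all measured genes were 1.5-fold lower. None of the 7 measured receptors reached 1.5-fold on its brightest probe on the main scale. Other measured probes did, at up to 0.87 for the integrin gene Itga1 and 0.65 for the integrin gene Itgb1. The median of the 7 was -0.02, but 0.20 with the mean of all measured probes. The integrin gene Itga10 reached 1.5-fold on the spike-in scale, at -0.74 against -0.38, beside the same 14.3% of all measured genes. On their brightest probes Itga1 differed by -0.21, Itgb1 by 0.21, Ddr1 by -0.02 and Ddr2 by 0.10.

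Other matrix genes showed no common direction. Of the 11 measured basement membrane genes outside the collagens, 6 lay above 0 and 5 below, and none reached 1.5-fold. Among them Nid1, which ties laminin to type IV collagen, differed by -0.22 on its brightest probe and by as much as 0.39 on another, and the perlecan gene Hspg2 by 0.17. Nid2, of the same list, was well above background on the S180 array alone and is outside these counts. Its signals were 27.4 in S180 and 4.42 in DMSO. Of 10 measured interstitial matrix genes, Fbn2 at 0.82 and Eln at 0.61, both of elastic fibres, were at least 1.5-fold higher and Lum was lower. Signals of Fbn2 were 49.6 in S180 and 34.1 in DMSO and those of Eln 31.8 and 25.4, and 5.49% of all genes of the dim class were 1.5-fold higher. Eln was short of 1.5-fold with quantile normalization, at 0.54, and both were on the spike-in scale, at 0.47 for Fbn2 and 0.25 for Eln, and with normexp, at 0.45 for Fbn2 and 0.32 for Eln. Of 19 measured regulators of collagen transcription, Ccn2, a matricellular protein induced by TGF-beta, was the 1 at least 1.5-fold higher, at 0.77, but at 0.42 on the spike-in scale. The TGF-beta genes Tgfb1, Tgfb2 and Tgfb3 differed by 0.02, -0.09 and -0.02.

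**Figure D4:**
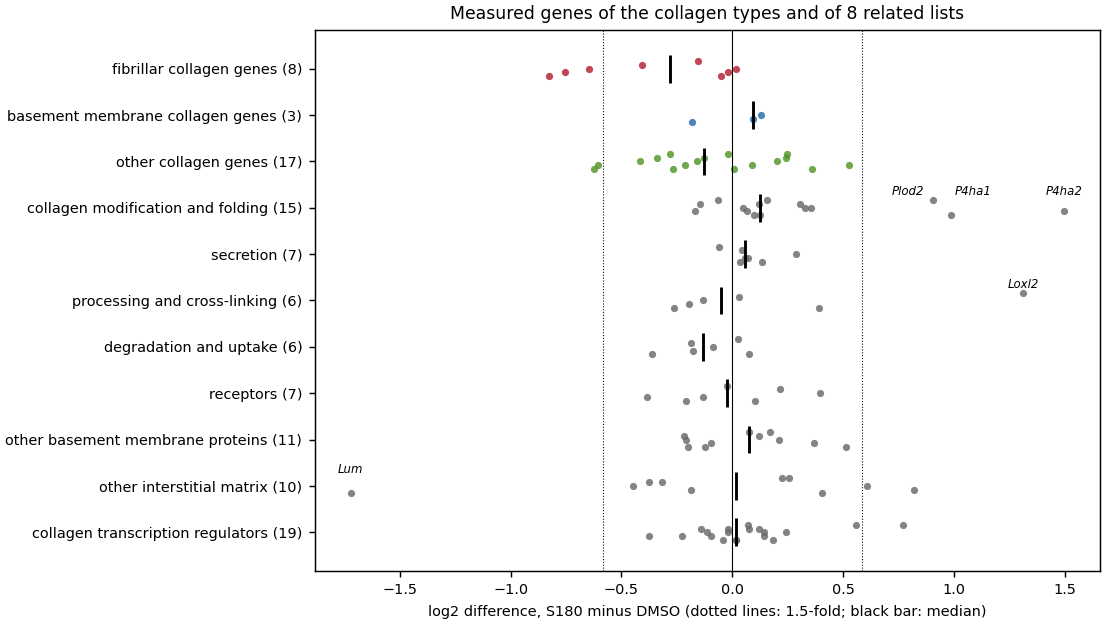
Log2 difference (S180 minus DMSO) of the measured genes of the 3 collagen types and of 8 related lists, 1 point per gene, with the median as a black bar and dotted lines at 1.5-fold. P4ha2, P4ha1, Plod2 and Loxl2 lie at the right and Lum at the left, whereas the fibrillar collagens lie at or left of 0. Medians between 0 and 0.12, and the type IV median of 0.09, fall below 0 on the spike-in scale.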

How the data were processed

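Total RNA of 2 samples of mouse cells was labelled with Cy3 and hybridised to 1 array each, per the labels' protocols; grouping followed the agent in the labels. The deposited scanner tables are output of Agilent Feature Extraction 10.7.1.1 and give linear intensity values, already background-subtracted, per the file headers. A deposited table of log2 values served as an alternative; how the authors made it is not stated. For 56745 probes its values were compared with quantile-normalised log2 signals: 99.8% (S180) and 99.7% (DMSO) differed by at most 0.01 on the sample's own array, and each column had a median of 5.27.

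Control spots and outlier spots (120 for S180, 195 for DMSO) were left out. Log2 values were averaged over the spots of a probe, minus the array's 75th percentile. A probe counted as well above background when at least 0.5 of its spots carried the flag. Collagen genes kept their file names; other probes were named through RefSeq accessions (GRCm38.p6, names only; 32994 of 56605 probes) or a unique synonym (520). The bound is taken against the higher of the dim array's lowest well-above-background level and the probe's own. The spot error came from 279 probes with at least 8 kept spots on each array. Every collagen gene could be named, with values for the fibrillar and type IV genes, partner chains and differences of 1.5-fold. Up to 4 genes of each list were named, besides the markers and Itga1. Values of further collagen genes and of Itga1 were added after they were seen. Alternatives are those of the closing section. The members, lists and tests were chosen with earlier results of these data known. The gene step was tested on simulated data. Python 3.11.15, pandas 2.3.3, R 4.3.3 and limma 3.58.1 were used.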

Additional observations from a re-analysis of the deposited data

How the results depend on the processing

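The count of collagen genes at least 1.5-fold lower in S180, 5 in the main setting, was 8 without scaling, 10 on the spike-in scale, 1 with normexp and 0 at a 2-fold threshold. At 2-fold it was 2 without scaling and 3 on the spike-in scale, a combination added after seeing the data. The median difference, -0.14 in the main setting, was -0.42 without scaling, -0.50 on the spike-in scale and -0.022 with normexp. The median of all measured genes moved to -0.28 without scaling and -0.35 on the spike-in scale, the same shift as in the collagen genes, and 9.01% and 14.3% of all genes were then 1.5-fold lower. With normexp 0.284% of all genes were 1.5-fold lower. The count was 5, with the same genes, under quantile normalization, cyclic loess, median scaling, the deposited table and all spots kept, and 4 with the mean of all probes, which left out Col1a2. No collagen gene was 1.5-fold higher under any of these settings. Between 28 and 38 genes were measured by the other detection rules. In 8 genes with a second measured probe, an alternative added after seeing the data, 5 moved by more than the spot SD. No paired analysis was possible because each group has 1 array. Signal over background limits the 15 dim genes, and 16 genes of the 44 have no measured difference.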
